A study of Caenorhabditis elegans with 12 samples.

Results

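The transcriptomes of lin-52(n771) mutants and of N2, the wild-type strain of the nematode Caenorhabditis elegans, were compared in larvae that had received no UV. The comparison rests on 6 of the 12 libraries of the series, chosen by their labels alone: N2 mock 1, 2 and 4 and lin-52 mock 2, 3 and 4, 3 libraries for each strain. Both groups were synchronized first-stage (L1) larvae that had been fed for 3 h, mock-treated, and collected whole 6 h later, and their RNA had been depleted of ribosomal RNA before sequencing. The mutants carry lin-52(n771) on chromosome III and N2 carries no mutation, and no other allele, transgene or agent is named for either group. A single mutant strain was used, so what the mutation does and what any other difference in the genetic background does cannot be told apart. The remaining 6 libraries come from larvae of the same strains that had received 60 mJ/cm2 of UVB, and served here to estimate the spread between replicates and to see which differences recurred. Levels are in FPKM, fragments of a gene scaled to its transcript length and to all mapped fragments of the library, and the 12913 protein-coding genes that averaged 1 FPKM or more over the 12 libraries were compared.

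LIN-52 is a subunit of the MuvB core of DREAM, a complex that also holds the Rb-like protein LIN-35 and an E2F-DP pair and that represses genes in cells that have stopped dividing. In C. elegans the genes for several of its subunits were found as synMuv B genes, and somatic cells of synMuv B mutants are known to express genes that normally belong to the germline. A newly hatched larva consists almost entirely of somatic cells and holds only a pair of primordial germ cells. The X chromosome of the worm is known to carry few genes that act in the early germline, and in hermaphrodites both copies are partly repressed by a dosage compensation complex.

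The transcript of lin-52 separated the strains. The gene lies on the minus strand of chromosome III, from 9824083 to 9824750 (WBcel235). It stood at 24.9, 27.6 and 20.4 FPKM in N2 and at 6.94, 7.43 and 7.58 FPKM in the mutants. Each mutant library lay below each N2 library, and the log2 fold change was -1.66 ± 0.09 (SE; limma adjusted p = 3.48e-07). All values below are FPKM scaled between libraries, and all log2 fold changes are lin-52 mock minus N2 mock on the log2(FPKM + 0.5) scale, which understates the change of low genes. "Higher" and "lower" are used for genes with a limma adjusted p below 0.05.

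Per library the deposited FPKM had a sum of 1244853 to 1398489, with 12475 to 12649 protein-coding genes at 1 FPKM or more. Residual ribosomal RNA was 22.6% and 19.8% of that sum in lin-52 mock 2 and 4 respectively, but 14.7% in lin-52 mock 3 and 15.6% to 16.2% in N2, and its part in the results was not tested. The fragments counted per library are not given in the sources used here. Genes that define the stage were expressed: lin-14 and lin-28, which specify early larval fates, stood at 51.8 to 56.8 and 97.4 to 103 FPKM in N2 and at 45.6 to 51 and 89.9 to 94.1 FPKM in the mutants, each below all N2 libraries although neither was called (limma adjusted p = 0.135 and 0.0743). The yolk genes vit-1 to vit-6, which adults express, all stayed below 0.14 FPKM in each of the 6 libraries.

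In all, 688 genes (5.33% of those tested) differed between the strains: 463 were higher in the mutants, which is 3.59%, and 225 were lower, which is 1.74%. The increases were larger than the decreases: 205 of the higher genes and 42 of the lower genes differed at least 1.5-fold (1.59% and 0.325% of the tested genes), and 41 and 12 differed at least 4-fold. Most of the lower genes, 183 of 225, therefore differed by less than 1.5-fold. The count of lower genes depended on how the libraries were scaled: it was 109 with the FPKM as deposited, 91 with libraries scaled to an equal sum and 157 after quantile normalization, against 542, 327 and 455 higher genes. The share of calls that were increases was thus 67.3% as reported and 83.3%, 78.2% and 74.3% in that order. Leaving out 1 library lowered the count of lower genes to 87 without N2 mock 1, 124 without N2 mock 2, 126 without N2 mock 4, 128 without lin-52 mock 2 and 114 without lin-52 mock 4. The median log2 fold change of all tested genes was -0.019 as reported and between -0.034 and 0.015 under these scalings.

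A part of the genes on the germline lists was higher in the mutants and none was lower. Of 239 genes on 7 lists of germline functions, 142 passed the expression filter, 22 of these were higher (15.5%, against 3.59% of all tested genes) and 0 were lower, with 4 lower at an unadjusted p below 0.05. The median log2 fold change of the 142 genes was 0.064. Without a filter on low values it was 0.027, with 22 genes higher and 0 lower. In 39 of the 142 genes all mutant libraries lay above all N2 libraries, a pattern shown by 10.2% of all tested genes. In 9 of the 142 all mutant libraries lay below, against 14.1% of all tested genes. The summed level of the germline lists was 1431 to 1439 FPKM in N2 and 1672 to 1725 FPKM in the mutants. In whole larvae, a change in the number of cells of a type and a change of RNA per cell cannot be told apart.

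**Figure D1:**
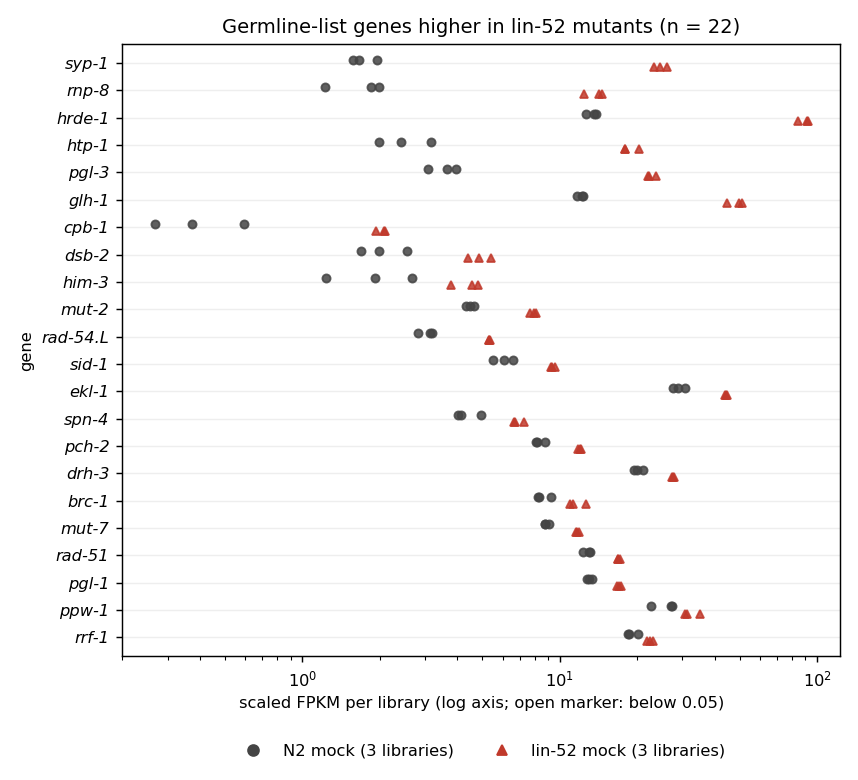
Scaled FPKM in each library (log axis) of the 22 genes of the germline lists that were higher in lin-52 mock (red triangles, 3 libraries) than in N2 mock (grey circles, 3 libraries), ordered by log2 fold change. The strains do not overlap in any of these genes, and the separation is widest for syp-1, rnp-8, hrde-1, htp-1, pgl-3 and glh-1.

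P granules are the perinuclear RNA-protein granules of germ cells. Of 16 tested genes for their components 3 were higher (18.8%, against 3.59% of all tested genes). The Vasa-like helicase gene glh-1 (chromosome I, 6854478 to 6857536) stood at 12.2, 12.3 and 11.7 FPKM in N2 and at 51.0, 44.6 and 49.6 FPKM in the mutants, a log2 fold change of 1.96 ± 0.06 (limma adjusted p = 2.63e-09). The scaffold gene pgl-3 rose from 3.65, 3.95 and 3.08 FPKM to 22, 22.3 and 23.7 FPKM, a log2 fold change of 2.52 ± 0.10 (limma adjusted p = 1.28e-08). These genes are separated between strains by a wide gap in all libraries. The related scaffold gene pgl-1 differed far less, at 12.8, 13 and 13.3 FPKM in N2 and 17.3, 16.7 and 17 FPKM in the mutants (log2 fold change 0.38 ± 0.04). The paralogs glh-2 and glh-4, also germline helicases, stood near 1 and 2 FPKM and were not called, with log2 fold changes of 0.27 ± 0.14 and -0.17 ± 0.13.

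Genes of germline small RNA pathways, which silence transposons and transmit silencing between generations, gave 8 higher genes of 33 tested (24.2%, against 3.59%). The nuclear Argonaute gene hrde-1 (III, 4172337 to 4176159) stood out among them, at 13.6, 12.6 and 13.9 FPKM in N2 and 92.1, 84.7 and 91.0 FPKM in the mutants (log2 fold change 2.69 ± 0.06). The other 7 differed less. They were mut-2, a nucleotidyltransferase that tails RNA (0.75 ± 0.08), sid-1, the channel for double-stranded RNA (0.60 ± 0.08), ekl-1, a Tudor-domain protein (0.60 ± 0.06), drh-3, a Dicer-related helicase (0.44 ± 0.05), mut-7, a protein with an exonuclease domain (0.39 ± 0.06), the Argonaute gene ppw-1 (0.33 ± 0.08) and the RNA-dependent RNA polymerase gene rrf-1 (0.23 ± 0.05). For ekl-1 the level was 28.8, 30.6 and 27.7 FPKM in N2 and 44.9, 43.9 and 44.2 FPKM in the mutants, so that a change of this size was still far larger than the spread between libraries. The calls of ppw-1 and rrf-1 were less secure and were lost under 12 and 8 of 20 alternative settings, among them 5 and 4 of the 6 that each left out 1 library. The list was not restricted to genes that act only in germ cells, so it does not set germline use apart from somatic use.

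A gene that was on none of the lists, pid-2, had one of the clearest increases of all. It lies on chromosome I from 93022 to 94884 and is needed for germline small RNAs to be passed on correctly. Its level was 6.03, 7.07 and 5.90 FPKM in N2 and 82.7, 77.7 and 83.5 FPKM in the mutants (log2 fold change 3.59 ± 0.07, limma adjusted p = 4.29e-11). The mutant libraries agree among themselves within a few FPKM and lie far above N2. On chromosome III, rde-4, which encodes the double-stranded RNA-binding partner of Dicer, was higher at 77.7, 79.6 and 82.6 FPKM against 59.0, 62.6 and 62.3 FPKM in N2 (0.38 ± 0.06).

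Meiotic genes were mostly positive, and the size of the change differed widely between members. Of 23 tested genes for the chromosome axis and its synapsis, 4 were higher (17.4%, against 3.59% of all tested genes). The log2 fold change was positive in 17 of the 23, with a median of 0.158. In 7 all mutant libraries lay above all N2 libraries, against 10.2% of all tested genes, and in 2 below, against 14.1%. The gene for the synaptonemal complex protein SYP-1 (V, 16404274 to 16407701) stood at 1.66, 1.57 and 1.95 FPKM in N2 and at 26.1, 23.2 and 24.5 FPKM in the mutants (log2 fold change 3.50 ± 0.09, limma adjusted p = 3.19e-10). Genes for other proteins of the same structure stayed low in both strains: syp-2 was at 2.54, 2.68 and 1.26 FPKM in N2 and 3.11, 2.47 and 1.78 FPKM in the mutants, syp-4 differed by -0.06 ± 0.16, and neither was called. Among the HORMA-domain proteins of the axis, htp-1 rose from 1.98, 2.43 and 3.16 FPKM to 18.0, 20.3 and 17.9 FPKM (2.68 ± 0.13) and him-3 from 1.91, 2.66 and 1.23 FPKM to 4.81, 4.57 and 3.77 FPKM (1.04 ± 0.20). Their partner htp-3 stood at 1.92, 1.85 and 1.47 FPKM in N2 and 2.1, 1.68 and 1.89 FPKM in the mutants, with overlapping libraries. The remodeler of these proteins, pch-2, was higher by 0.50 ± 0.06.

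Of 23 tested genes for meiotic double-strand breaks and crossovers, 4 were higher as well (17.4%, against 3.59% of all tested genes). The log2 fold change was positive in 16 of the 23, with a median of 0.091. In 8 all mutant libraries lay above all N2 libraries, against 10.2% of all tested genes, and in 0 below. The higher genes were dsb-2, which promotes break formation (1.07 ± 0.14), and the recombination genes rad-54.L (0.72 ± 0.09), brc-1 (0.41 ± 0.10) and rad-51 (0.39 ± 0.06). The strand-exchange gene rad-51 was at 12.9, 13.1 and 12.3 FPKM in N2 and 16.9, 16.8 and 17.1 FPKM in the mutants, and dsb-2 was near 2 FPKM in N2. The last 3 also act in the repair of damage in other cells, so that their list does not set germline use apart from repair. The call of brc-1 was lost in 5 of the 6 fits that each left out 1 library.

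RNA regulators of germ cell fate had the lowest median among the 5 germline lists other than those of oocyte and sperm genes. Of 32 tested, 3 were higher (9.38%, against 3.59% of all tested genes), and the median log2 fold change was 0.009. The higher genes were rnp-8, a partner of the GLD-2 poly(A) polymerase, at 1.98, 1.85 and 1.23 FPKM in N2 and 14.6, 12.5 and 14.2 FPKM in the mutants (2.72 ± 0.13), cpb-1, a CPEB protein of spermatogenesis (1.49 ± 0.16), and spn-4, an RNA-binding regulator of the early embryo (0.60 ± 0.12), whose call was lost in 3 of 6 fits without 1 library. The proliferation regulators glp-1 and gld-1, which mark germ cells, stood at 3.46 to 3.53 and 3.02 to 3.91 FPKM in N2 and at 3.26 to 3.44 and 2.75 to 3.94 FPKM in the mutants, and were not called. The germ cell determinant nos-1 was below 1.1 FPKM in all 6 libraries.

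Of the genes of later gametogenesis few passed the filter and none was called. Of 20 genes for oocytes, eggshell and yolk 10 passed the filter, of 84 sperm genes 9 did, and 0 of these were higher or lower (limma, with 1 higher and 1 lower at an unadjusted p below 0.05, both sperm genes). Those that passed were not all low, and spe-48 stood at 17.6 to 20.9 FPKM in N2 and 17.8 to 20.9 FPKM in the mutants. The 22 higher genes thus all came from the other germline lists, those of meiosis included. Most sperm genes were not tested because of the filter. Without a filter on low values 1 sperm gene was higher and 0 genes for oocytes, eggshell and yolk were. Lists are described here by their counts and medians, and no test of a list was made.

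**Figure D2:**
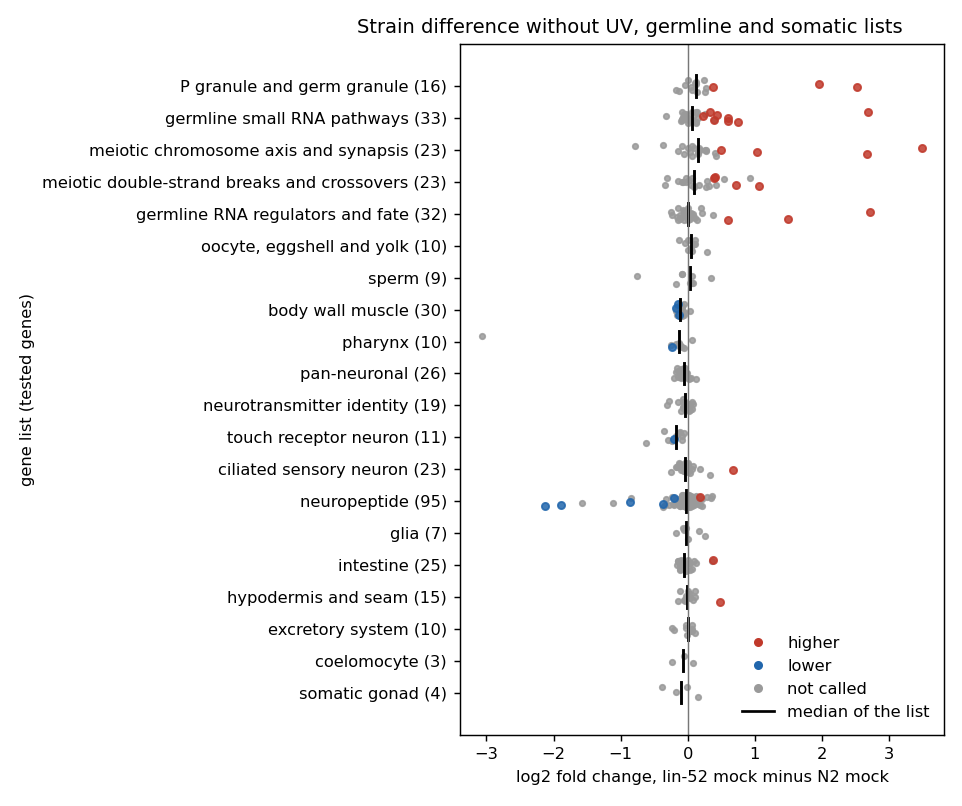
Log2 fold change (lin-52 mock minus N2 mock) of each tested gene, one row per gene list with the number of tested genes in parentheses. Red and blue points passed the test (higher and lower), grey points did not, and the black bar is the median of the list. The 5 upper germline lists have red points far to the right, whereas somatic lists are narrow around values slightly below 0, with the neuropeptide genes reaching furthest to the left among called genes. The grey pharynx point at the far left is myo-1, listed at 0 in 5 of the 6 libraries.

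Genes that mark somatic tissues changed little. Of 297 genes on 13 lists 278 were tested. Of these 4 were higher (1.44%, against 3.59% of all tested genes) and 10 were lower (3.60%, against 1.74%). Their median log2 fold change was -0.054. All mutant libraries lay below all N2 libraries in 69 of them, against 14.1% of all tested genes, and above in 10. The count of 10 lower genes was 7 with the FPKM as deposited, 3 with an equal sum and 7 after quantile normalization, 5 without N2 mock 1 and 4 without lin-52 mock 4.

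Body wall muscle showed a small difference in one direction. The log2 fold change was negative in 29 of 30 genes, with a median of -0.116, and the summed level was 8083 to 8293 FPKM in N2 and 7240 to 7776 FPKM in the mutants. In 22 of the 30 genes the mutant libraries all lay below N2, a pattern shown by 14.1% of all tested genes. The myosin heavy chain gene unc-54 stood at 694, 700.1 and 740.3 FPKM in N2 and at 651, 606 and 659 FPKM in the mutants (-0.16 ± 0.05, limma adjusted p = 0.141). Only the giant filament genes unc-22 (-0.13 ± 0.03) and ttn-1 (-0.14 ± 0.03) and the myosin light chain gene mlc-1 (-0.18 ± 0.04) were called lower. None of these 3 calls held with the FPKM as deposited, with an equal sum or after quantile normalization, and those of unc-22 and mlc-1 were lost whichever library was left out and that of ttn-1 in 4 of 6 such fits. The list median was -0.079, -0.131 and -0.072 in the other scalings, each with 29 of 30 genes negative. The muscle determinant hlh-1 was at 13.6, 13.9 and 13.1 FPKM in N2 and 13.1, 11.9 and 11.3 FPKM in the mutants (-0.16 ± 0.07, limma adjusted p = 0.260).

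Ribosomal protein genes, which every cell uses, moved in the same direction by a similar small amount. The log2 fold change was negative in 77 of 77 tested genes with a median of -0.077, and 0 were called (limma, with 8 lower at an unadjusted p below 0.05). After quantile normalization 35 of the 77 were negative and the median was 0.001. The direction of this list thus depended on the scaling.

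Neuronal genes gave few calls and mostly negative differences. Of 26 pan-neuronal genes and 19 genes of neurotransmitter identity 0 were higher or lower (limma, with 7 and 1 lower at an unadjusted p below 0.05), and the medians were -0.054 and -0.033, with 21 of 26 and 12 of 19 genes negative. In 9 of the pan-neuronal genes all mutant libraries lay below N2, a pattern shown by 14.1% of all tested genes. Touch receptor genes had a median of -0.171, all 11 were negative and in 6 all mutant libraries lay below N2. In the other scalings the median was -0.185 to -0.137, again with 11 of 11 negative. Of these genes 1 was called lower, the beta-tubulin gene mec-7, at 82.3, 83.0 and 87.3 FPKM in N2 and 74.1, 72.0 and 72.2 FPKM in the mutants (-0.21 ± 0.04). This call was lost without N2 mock 4 and without lin-52 mock 4. Among 23 genes of ciliated sensory neurons dyf-7, which anchors growing dendrites, was higher (0.67 ± 0.16), a call that was lost whichever library was left out.

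Neuropeptide genes held the larger somatic decreases. Of 95 tested, 5 were lower (5.26%, against 1.74% of all tested genes) and 1 was higher (1.05%, against 3.59%), and 3 were lower without N2 mock 1 or without lin-52 mock 4. The gene nlp-63 was at 7.80, 5.25 and 9.51 FPKM in N2 and at 1.56, 2.98 and 0.314 FPKM in the mutants (-2.12 ± 0.41). The FMRFamide-like genes flp-25 (-1.89 ± 0.15), flp-8 (-0.37 ± 0.08) and flp-16 (-0.21 ± 0.05) and the gene nlp-66 (-0.86 ± 0.17) were also lower, whereas nlp-27 was higher (0.18 ± 0.05). The median of the whole list was -0.024, close to that of all genes. The calls of nlp-27, flp-16 and flp-8 were lost in 5, 3 and 3 of 6 fits without 1 library, that of nlp-63 without N2 mock 4 and that of nlp-66 without lin-52 mock 4. An insulin-like gene outside this list, ins-39 on the X chromosome, was at 4.78, 4.60 and 4.93 FPKM in N2 and was listed at 0, 0 and 0.607 FPKM in the mutants.

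Other tissues gave few calls. In the intestine the acyl-CoA dehydrogenase gene acdh-1 was higher, at 485, 431 and 450.3 FPKM against 326, 355 and 365 FPKM in N2 (0.38 ± 0.10), and in the hypodermis and seam the nuclear receptor gene nhr-73 was higher (0.48 ± 0.11). The call of acdh-1 was lost whichever library was left out and that of nhr-73 in 5 of 6 such fits. The pharyngeal gland gene phat-6 was lower (-0.24 ± 0.03). Among 7 glial, 10 excretory, 3 coelomocyte and 4 somatic gonad genes 0 were called (limma, with 2 lower excretory genes and 1 higher gonad gene at an unadjusted p below 0.05). The intestinal determinant elt-2 stood at 11.5 to 13.2 FPKM in N2 and 11.8 to 14.0 FPKM in the mutants.

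Genes of moulting and of developmental timing were compared because larvae of unequal age would differ in them. Of 38 tested moulting genes 0 were called (limma, with 1 higher and 0 lower at an unadjusted p below 0.05), although their median log2 fold change was 0.155. Their summed level varied as much within a strain as between strains, from 1196 to 1494 FPKM in N2 and from 1245 to 1765 FPKM in the mutants. Of 6 larval timing genes 0 were called (limma, with 2 lower at an unadjusted p below 0.05). In 3 of them, lin-14 and lin-28 included, all mutant libraries lay below N2, against 14.1% of all tested genes. The summed level of the timing list was 232.8 to 240.9 FPKM in N2 and 214.4 to 222.2 FPKM in the mutants. Whether the strains differed slightly in age was not tested. The cuticle collagens gave 4 lower genes of 73 (5.48%, against 1.74% of all tested genes) and 1 higher (1.37%, against 3.59%). The count of lower collagens was 0 without N2 mock 1, N2 mock 4 or lin-52 mock 2, 1 without lin-52 mock 4 and 6 without lin-52 mock 3. Among the 4 was col-160, at 399, 344 and 366 FPKM in N2 and 257, 321 and 272 FPKM in the mutants (-0.39 ± 0.08), a call that was lost in 4 of 6 fits without 1 library.

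Of the 8 genes of the complex itself 5 were higher (62.5%, against 3.59% of all tested genes) and 2 were not called. The 1 lower gene was lin-52 (12.5%, against 1.74% of all tested genes). The DP gene dpl-1 stood at 13.1, 14.7 and 12.6 FPKM in N2 and 24.4, 24.3 and 25.5 FPKM in the mutants (0.85 ± 0.07). The MuvB gene lin-9 was higher by 0.82 ± 0.05, the E2F gene efl-1 by 0.68 ± 0.05, the Rb-like gene lin-35 by 0.40 ± 0.06 and the histone-binding gene lin-53 by 0.25 ± 0.05, a call that was lost without lin-52 mock 2. The MuvB genes lin-54 (0.21 ± 0.07, limma adjusted p = 0.0986) and lin-37 (0.14 ± 0.07, limma adjusted p = 0.372) were not called. Of 21 other synMuv B and germline-fate chromatin genes 5 were higher (23.8%, against 3.59% of all tested genes). Among these were the histone methyltransferase gene mes-4 (0.36 ± 0.06) and mes-6, a subunit of the worm Polycomb complex (0.32 ± 0.05). The others were lin-36 (0.36 ± 0.05), lin-13 (0.21 ± 0.03) and lin-15B. The Polycomb partners mes-2 and mes-3 differed by -0.03 ± 0.06 and 0.01 ± 0.05.

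Many proliferation genes were higher, by modest amounts. Of 75 cell cycle genes 34 were higher (45.3%, against 3.59% of all tested genes) and 0 lower, with 0 lower also at an unadjusted p below 0.05, and the median was 0.227. The centriole genes sas-7 (0.84 ± 0.05) and sas-6 (0.82 ± 0.07) and the separase gene sep-1 (0.68 ± 0.05) led the list, and sep-1 was at 10.9, 11.1 and 10.8 FPKM in N2 and 17.8, 18.0 and 17.5 FPKM in the mutants. Of 34 replication genes 11 were higher (32.4%), with 18 higher using the FPKM as deposited and 7 with an equal sum, and the DNA ligase gene lig-1 came first (0.79 ± 0.05). Of 192 tested DNA-damage response genes on a list that the study drew from other data, 45 were higher (23.4%) and 1 was lower, against 52 higher with the FPKM as deposited and 28 with an equal sum. Among 77 histone genes 3 were higher (3.90%) and 1 lower (limma, with 17 higher and 1 lower at an unadjusted p below 0.05). Of these, 58 were positive, the median was 0.080, and the summed level was 30738 to 31963 FPKM in N2 and 32921 to 34949 FPKM in the mutants. A group defined by the response to intracellular pathogens gave 13 higher genes of 27 (48.1%, median 0.401), or 5 with a minimum of 5 FPKM. Of its 48 genes 21 did not pass the filter, which averages all 12 libraries. Members below 1 FPKM in unirradiated N2 thus passed it through the other groups. Without a filter on low values 14 of the group were higher, and its median was 0.142. Its largest increases were those of pals-27 (3.40 ± 0.14) and pals-38 (3.39 ± 0.25), each below 1 FPKM in all N2 libraries and at 5.42 to 6.54 and 8.62 to 10.5 FPKM in the mutants. Its helicase gene drh-1 was at 16.1, 16.9 and 15.2 FPKM in N2 and 24.6, 22.4 and 23.5 FPKM in the mutants (0.54 ± 0.07), a change well beyond the spread, and the cullin gene cul-6 was higher by 0.55 ± 0.10.

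Most of the higher genes belonged to none of the lists, 297 of 463, and so did 202 of the 225 lower genes. Of the 463 higher genes 44 had a mean below 1 FPKM in unirradiated N2, so they passed the filter through the other groups. The largest increases of all were in genes that N2 hardly expressed. On chromosome V the neighbors B0507.8 and ddn-1 rose by 5.53 ± 0.07 and 5.43 ± 0.17, C53A5.9 by 4.66 ± 0.13 and Y2H9A.6 by 4.34 ± 0.17. F09C6.13, on the same chromosome, was listed at 0 in the 3 N2 libraries and at 26.4, 25.6 and 19.9 FPKM in the mutants. Among the genes with some expression in N2, gpd-4, a glyceraldehyde-3-phosphate dehydrogenase gene (II, 10171268 to 10172498), stood at 9.40, 10.4 and 9.25 FPKM in N2 and 59.6, 66.9 and 62.8 FPKM in the mutants (2.65 ± 0.07, limma adjusted p = 6.80e-10). The uncharacterized gene F37D6.3 on chromosome I rose from 2.69, 2.01 and 3.26 FPKM to 20.8, 22.7 and 20.3 FPKM (2.80 ± 0.13). The gene C29A12.1 on chromosome V rose from 1.06, 2.07 and 1.54 FPKM to 15.2, 16.5 and 17.9 FPKM (3.07 ± 0.20). These genes were low but not silent in N2, and the strains did not overlap.

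Decreases of more than 4-fold were found in 12 genes, and 14 of the lower genes had a mean below 1 FPKM in the mutants. The X-linked gene T09B9.3 was nearly absent from the mutants, with 10.3, 8.93 and 10.5 FPKM in N2 and 0.152, 0.0665 and 0 FPKM in the mutants (-4.19 ± 0.13). On chromosome IV, K04D7.6 was at 5.03, 5.26 and 3.99 FPKM in N2 and at 0, 0.119 and 0 FPKM in the mutants, and C18H7.6 at 3.94, 3.92 and 4.35 FPKM in N2 and 0.0441, 0.0386 and 0 FPKM in the mutants. C29F4.3 on the same chromosome was listed at 0 in all 3 mutant libraries and at 1.72, 1.59 and 1.5 FPKM in N2. The gene her-1, whose secreted product promotes male fate, was at 9.75, 3.30 and 7.68 FPKM in N2 and 0, 1.02 and 0.198 FPKM in the mutants (-3.08 ± 0.62, limma adjusted p = 0.0124), with a wide spread in N2 and a call that was lost in 4 of 6 fits without 1 library. Smaller decreases were seen for the ciliary X-box gene xbx-9 (-1.39 ± 0.07), the cathepsin B-like gene cpr-2 (-1.26 ± 0.11) and Y9C2UA.1 (-1.50 ± 0.08), which was at 29.2, 28.8 and 30.4 FPKM in N2 and 9.07, 11.1 and 10.1 FPKM in the mutants.

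The X chromosome held few increases. Of its 1894 tested genes 12 were higher, which is 0.634%, whereas 451 of 11007 autosomal genes were, which is 4.10%. The share on single autosomes ran from 3.24% on II and 3.30% on IV to 4.60% on III, 4.61% on V and 4.64% on I. X-linked genes were 14.7% of the tested genes and 2.59% of the higher ones. Under the 20 alternative settings the share of X genes called higher was 0.317% to 0.686% and that of autosomal genes 2.04% to 4.82%.

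**Figure D3:**
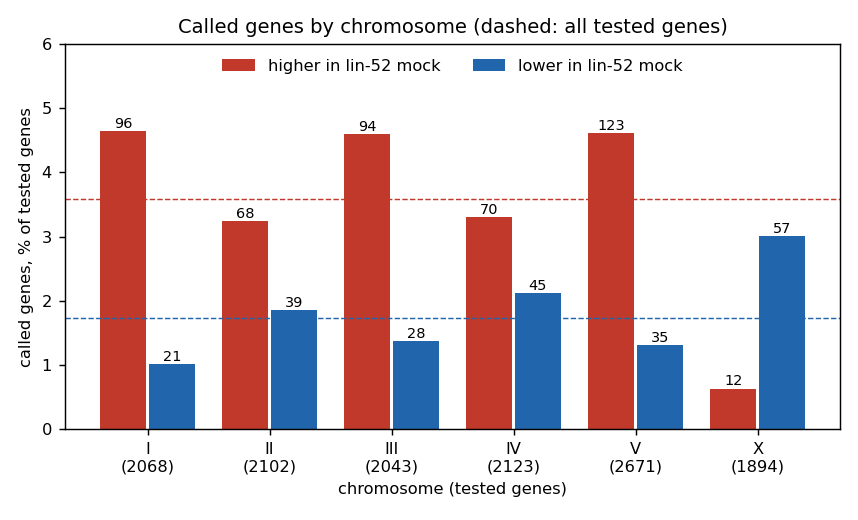
Share of tested genes that were higher (red) or lower (blue) in the unirradiated mutants, by chromosome, with the number of called genes above each bar and of tested genes below each name. Dashed lines are the shares over all tested genes, 3.59% and 1.74%. Chromosome X has the lowest red bar (12 genes) and the highest blue bar (57 genes).

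The lower share on X was also found outside the lists. None of the 142 tested germline genes lies on X. Without the genes of the germline, cell cycle, replication, DNA-damage and pathogen response lists, 12 of 1885 X genes (0.637%) and 333 of 10580 autosomal genes (3.15%) were higher. In those lists 118 of 427 autosomal genes (27.6%) were higher, and only 9 X genes were tested. The share was lower in 5 of 6 classes of expression level: among genes with a mean of 5 to 20 FPKM, 5 of 721 X genes (0.693%) were higher against 4.67% of all genes, and among those of 20 to 100 FPKM, 2 of 493 (0.406%) against 3.53%. It was 0.719% against 2.30% at 1 to 2 FPKM, 0.608% against 4.15% at 2 to 5 FPKM and 0.629% against 1.29% at 100 FPKM or more, whereas below 1 FPKM in the mock libraries 1 of 53 X genes was higher (1.89% against 0.990%).

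Decreases were more frequent on X, but this depended on the processing. As reported, 57 of 1894 X genes were lower (3.01%) against 168 of 11007 autosomal genes (1.53%). The shares were 1.06% and 0.809% with the FPKM as deposited, 1.06% and 0.645% with an equal sum, and 1.95% and 1.09% after quantile normalization. Each library left out lowered the count of 57, to 18, 27 and 25 without N2 mock 1, 2 and 4 and to 24, 31 and 20 without lin-52 mock 2, 3 and 4. With both lin-52 libraries of highest ribosomal RNA left out, a setting chosen after the data were seen, they were 0.686% and 0.681%. The median log2 fold change was -0.037 on X and -0.016 on autosomes. Of the 57 lower X genes 9 differed at least 1.5-fold, and X genes took 10.2% to 10.3% of the FPKM of tested genes in N2 and 9.95% to 10.2% in the mutants.

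The 12 X-linked increases were all below 2 on the log2 scale, and 7 of them (58.3%) were at least 1.5-fold. Of all 463 higher genes 205 differed at least 1.5-fold and 41 (8.86%) at least 4-fold. The gene rcs-1 was at 27.4, 29.5 and 29.5 FPKM in N2 and 52.1, 53.3 and 52.6 FPKM in the mutants (0.86 ± 0.04, limma adjusted p = 8.83e-08). The gene sid-5, needed for RNA silencing to spread between cells, was at 26.0, 19.7 and 25.4 FPKM in N2 and 51.1, 48.0 and 41.8 FPKM in the mutants (0.98 ± 0.11). The synMuv genes lin-15A and lin-15B, which share an operon, were higher by 0.42 ± 0.08 and 0.32 ± 0.04. The other X-linked higher genes were C49F5.6 (1.51 ± 0.14), W04G3.12 (1.33 ± 0.18), ZK402.1 (1.25 ± 0.18), C02B8.1 (1.19 ± 0.24), dyf-7, T08D2.8 (0.47 ± 0.09), M02D8.3 (0.26 ± 0.07) and the asparagine synthetase gene asns-2 (0.17 ± 0.04). The calls of M02D8.3 and asns-2 were each lost in 5 of 6 fits without 1 library, that of C02B8.1 without lin-52 mock 2 and that of T08D2.8 without lin-52 mock 4.

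**Figure D4:**
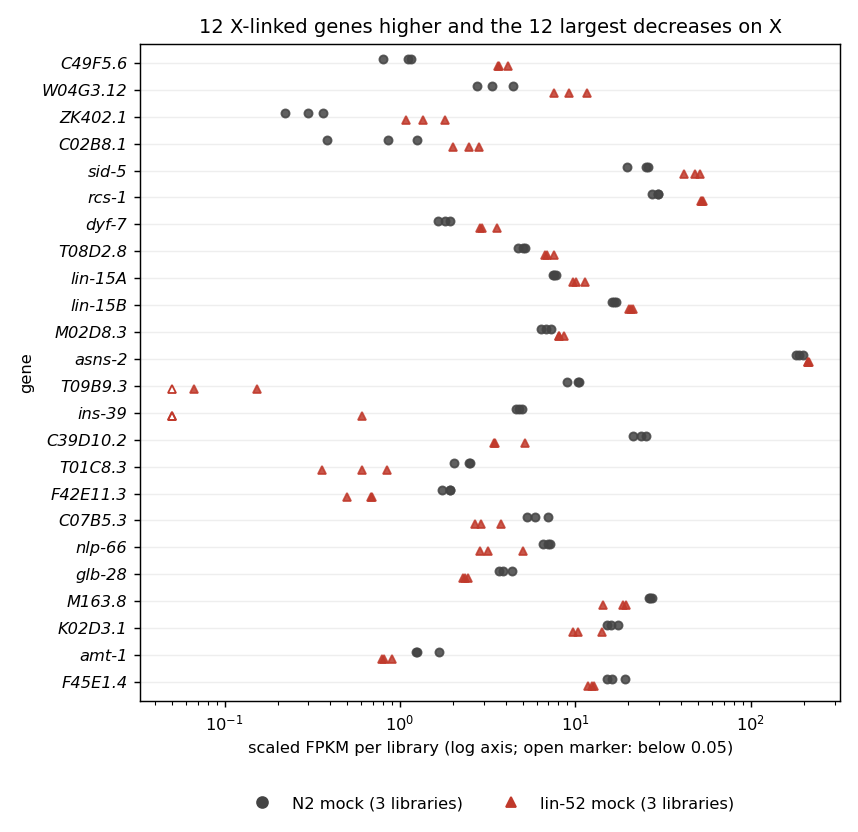
Scaled FPKM in each library (log axis) of the 12 X-linked genes that were higher in lin-52 mock (red triangles) than in N2 mock (grey circles) and, below them, of the 12 X-linked genes with the largest decreases. Open triangles mark libraries below 0.05 FPKM, drawn at that value. Of the 12 increases 7 are at least 1.5-fold, as are 9 of all 57 decreases on X. T09B9.3, ins-39 and C39D10.2 fall far below N2 in the mutants.

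The largest decreases on X after T09B9.3 and ins-39 were C39D10.2 (-2.43 ± 0.13) and T01C8.3 (-1.38 ± 0.20). C39D10.2 was at 25.4, 21.3 and 23.7 FPKM in N2 and 3.46, 3.42 and 5.13 FPKM in the mutants. Abundant X genes moved by small amounts, such as jmjd-3.3, of a histone demethylase family, at 72.0, 73.5 and 75.5 FPKM in N2 and 60.4, 56.1 and 58.8 FPKM in the mutants (-0.33 ± 0.04). Genes of dosage compensation and sex determination were mostly equal. Of 17 tested, mix-1, a condensin subunit, was higher (0.28 ± 0.04) and her-1 lower. Each is 5.88% of the list, where 3.59% of all tested genes were higher and 1.74% lower. The dosage compensation genes sdc-2, dpy-27 and dpy-21 differed by 0.03 ± 0.05, -0.06 ± 0.03 and -0.01 ± 0.05.

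Each autosome was cut into 3 parts of equal length. Higher genes made up 6.62% of the tested genes in the right part of V (48 of 725) and 1.91% in the middle part of II (17 of 888). Over all autosomes the middle parts had 3.67% and the outer parts 4.41%. Of the 463 higher genes 128 (27.6%) stood next to another higher gene with no other tested gene between. They lay in 53 runs, 12 of which held 3 genes or more. Of the 225 lower genes 22 (9.78%) stood next to another lower gene, in 11 runs of 2. Higher genes were 3.59% of all tested genes and lower genes 1.74%. Neighbors with the same call are met more easily where more genes are called, so these shares cannot be compared directly. The share to be met by number of calls alone was not computed. Neighbors in the worm can share an operon or a promoter, and reads of overlapping genes may be split between them, so members of a run are not independent.

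The longest run held 6 genes on chromosome V from 15571476 to 15590617. It consisted of fbxa-95 (1.44 ± 0.17) and fbxa-94 (1.61 ± 0.21), both F-box genes, mdt-28 (0.41 ± 0.05), the ataxin-3 gene atx-3 (0.67 ± 0.09), F28F8.9 (0.89 ± 0.15) and F28F8.7, which rose from 4.12, 3.54 and 3.48 FPKM to 22.2, 20.2 and 20.8 FPKM (2.36 ± 0.07). A run of 5 uncharacterized genes on chromosome III, from 13499199 to 13508650, lay on 1 strand. Its members T28A8.6, T28A8.5, T28A8.8, T28A8.4 and T28A8.3 differed by 2.63 ± 0.09, 2.85 ± 0.11, 1.73 ± 0.30, 2.90 ± 0.12 and 1.97 ± 0.09, and T28A8.5 was at 2.27, 3.28 and 3.10 FPKM in N2 and 22.6, 23.2 and 25.5 FPKM in the mutants. A run of 3 on chromosome I, from 3606407 to 3618317, held the innexin genes inx-22 and inx-21, whose products join germ cells to the gonadal sheath. The former rose from 0.740, 0.821 and 0.869 FPKM to 9.27, 8.37 and 7.32 FPKM (2.75 ± 0.16) and the latter from 1.28, 1.48 and 1.24 FPKM to 3.38, 3.92 and 3.08 FPKM (1.11 ± 0.12). Here neighbors of one family moved together, and their libraries did not overlap between strains.

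The genes around lin-52 were counted beside all tested genes, of which 3.59% were higher and 1.74% lower. Within 100 kb, 0 of 45 other tested genes were called (limma, with 3 higher and 4 lower at an unadjusted p below 0.05). Within 500 kb, 6 of 190 were higher (3.16%) and 5 lower (2.63%), and within 1000 kb 16 of 360 were higher (4.44%) and 5 lower (1.39%). The genes within 500 kb include rde-4, mut-7, hcp-3, the worm CENP-A gene (0.40 ± 0.07), flp-25, emb-9, a type IV collagen gene (-0.15 ± 0.03), and clu-1 (-0.14 ± 0.03), whose call was lost in 5 of 6 fits without 1 library.

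The strain difference was also taken in the irradiated larvae, whose libraries are separate from those above but entered the same fit. Of the 463 higher genes 334 (72.1%) were again higher after UV, where 13% of all tested genes were, and they made up 20% of the 1673 genes higher there. Of the 225 lower genes 91 (40.4%) were again lower after UV, where 15.2% of all tested genes were, and they made up 4.63% of the 1964 genes lower there. In the opposite direction 20 and 22 were called. The median log2 fold change of the higher genes was 0.52 without UV and 0.44 after it, and that of the lower genes -0.26 and -0.09.

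**Figure D5:**
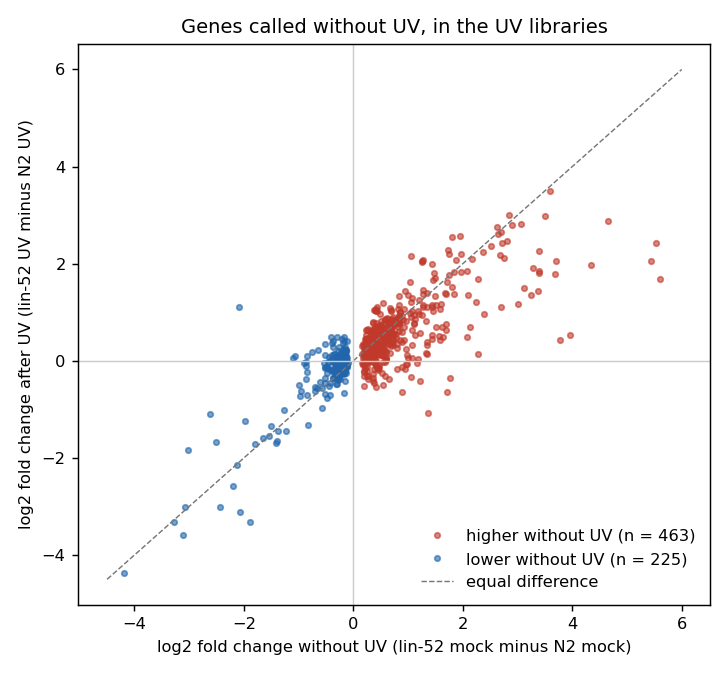
Log2 fold change between strains without UV (x axis) and after UV (y axis) of the 463 genes higher (red) and 225 genes lower (blue) in the mutants without UV. The dashed line marks an equal difference. Most red points stay above 0 on the y axis, whereas the blue points close to 0 on the x axis scatter on both sides of 0 after UV.

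Of the 20 largest increases 19 were again called after UV, and in 10 of them the difference was smaller there (limma interaction, adjusted p below 0.05), such as B0507.8 (2.42), ddn-1 (2.05) and C53A5.9 (2.88). Germline genes with large differences were higher after UV too. The log2 fold change of pid-2 was 3.49 after UV (limma adjusted p = 1.16e-10), that of hrde-1 2.65, of glh-1 2.20, of pgl-3 2.36, of rnp-8 2.42 and of syp-1 2.99. The decreases of T09B9.3 (-4.38), C39D10.2 (-3.01), K04D7.6 (-3.31), C18H7.6 (-3.58) and xbx-9 (-1.66) were likewise present in the irradiated larvae. The muscle genes called lower without UV were not lower there: unc-22 differed by 0.23, mlc-1 by 0.24 and ttn-1 by -0.01. Of the 12 X-linked higher genes 5 were again called higher and 7 were not: C49F5.6 (1.14) and rcs-1 (0.42) were, while sid-5 (0.11) and W04G3.12 (0.17) were not.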

How the data were processed

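Total RNA of whole L1 larvae was rRNA-depleted and sequenced as paired-end reads of 75 bases. Per the labels and the study's methods, the authors mapped reads with Tophat 2.0.10 on the gene models of Ensembl 85, computed FPKM with Cufflinks 2.1.1 and deposited 1 FPKM value per gene and library. The genome build, strand use in counting, treatment of multi-mapping reads and fragments per library are not given in the sources used here, so values of overlapping, antisense and near-identical genes (pals, fbxa, msp and histone families among them) are uncertain. The deposited table also has 11 empty, unnamed columns.

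Of 46245 gene identifiers 45990 matched the WBcel235 annotation of Ensembl 115, which gave names, positions and biotypes, and 255 did not. Each library was divided by a median-ratio size factor (0.969 to 1.049) computed from the 14130 protein-coding genes with no 0 in any library. All protein-coding genes averaging 1 FPKM or more, 255 of them with at least 1 library at 0, were tested on log2(FPKM + 0.5). The test was limma 3.58.1 in R 4.3.3 (12 libraries, 4 group means, intensity trend, prior df 3.28, residual df 8, two-sided, Benjamini-Hochberg over 12913 genes). SEs had a median of 0.084 (log2). A value of 0 can be a failed estimate, as in myo-1, so such genes are given as listed at 0. The procedure was checked on simulated data. Python 3.11.15 with numpy, pandas and matplotlib made the counts and figures.

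Members, 39 hand-written gene lists and 3 lists from the study were chosen with earlier results of these data known, and 4 listed symbols matched no gene. Genes to be named were the DREAM genes, the 20 largest increases and decreases with at least 5 FPKM and no overlap, called X-linked genes, called list members, called genes within 500 kb of lin-52, the longest runs, abundant list members and genes at 0 in a group. They came to 244, of which those most telling are named, and others (syp-2, syp-4, htp-3, glh-2, glh-4, gld-1, glp-1, nos-1, hlh-1, unc-54, elt-2, lin-14, lin-28, mes-2, mes-3, sdc-2, dpy-21, dpy-27, drh-1, cul-6, K04D7.6, C18H7.6 and myo-1 among them) were chosen after their values were seen. Replicates are described as biological triplicates. The study's methods have larvae for RNA-seq prepared in quadruplicates and RNA sequenced as triplicates, and give no reason for the replicate numbers left out. Promoter motifs and other sequences were not analysed here.

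Alternatives were other scalings, pseudocounts of 0.1 and 1, no filter or 5 FPKM, all biotypes, the 6 mock libraries alone, no trend, a robust fit, the replicate number as a block, zeros as missing and each library left out.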

Additional observations from a re-analysis of the deposited data

Results flagged for a closer look

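For some named genes the strain difference without UV differed from that after UV (limma interaction, after UV minus without UV, adjusted p below 0.05 over all tested genes). Values are the change in log2 fold change ± SE. Among germline and chromatin genes the difference was smaller after UV for syp-1 (-0.51 ± 0.12), ekl-1 (-0.41 ± 0.08) and pch-2 (-0.37 ± 0.09). It was larger after UV for the DREAM genes lin-35 (0.29 ± 0.08) and lin-53 (0.38 ± 0.07) and for mes-4 (0.41 ± 0.09) and mes-6 (0.26 ± 0.08).

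Among somatic genes, the decreases of unc-22 (0.36 ± 0.05), mlc-1 (0.41 ± 0.06), mec-7 (0.28 ± 0.06), flp-16 (0.23 ± 0.06), col-160 (0.50 ± 0.11), clu-1 (0.26 ± 0.04) and emb-9 (0.21 ± 0.04) were absent or opposite in sign after UV. The increase of acdh-1 was larger (0.66 ± 0.14) and the decrease of flp-25 was deeper (-1.42 ± 0.22).

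On the X chromosome the increases of rcs-1 (-0.44 ± 0.06), sid-5 (-0.87 ± 0.16) and W04G3.12 (-1.15 ± 0.25) were smaller after UV, and the decrease of jmjd-3.3 was not seen after UV (0.34 ± 0.06). Elsewhere the increases of fbxa-95 (-0.91 ± 0.25) and cul-6 (-1.04 ± 0.14) were smaller or opposite, and that of mdt-28 was larger (0.38 ± 0.07). For C29F4.3 the strain difference was larger after UV (-1.04 ± 0.22). The mutants were listed at 0 with and without UV, and N2 was at 1.5 to 1.72 FPKM without UV and 3.44 to 4.09 FPKM after it. Among the largest increases the difference was smaller after UV for B0507.8 (-3.11 ± 0.10), ddn-1 (-3.37 ± 0.25), Y2H9A.6 (-2.36 ± 0.24), C53A5.9 (-1.77 ± 0.19), pals-27 (-1.56 ± 0.20) and pals-38 (-1.58 ± 0.35), and for F09C6.13 (-3.91 ± 0.27), whose value without UV rests on N2 libraries listed at 0.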

How the results depend on the processing

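Of the 126 named and tested genes, 105 were called, and none of these changed sign over 20 alternative settings. Sign changes of genes called in neither fit were not counted. Of the 105, 64 kept their call in each setting that tested them, 24 lost it when 1 library was left out and 17 lost it in another setting only. A setting that did not test a gene, such as the 5 FPKM filter for low genes, was not counted for it. Of the counts, genes higher in the mutants (463) and those again higher after UV (334) stayed within 1.5 times except in the fit noted last below, whereas the counts of lower genes did not. Genes lower in the mutants (225) came to 109 with the FPKM as deposited, 91 with an equal sum and 149 without the intensity trend. X-linked lower genes (57) came to 20, 20 and 37 with the FPKM as deposited, an equal sum and quantile normalization and to 34 with the 6 mock libraries alone. Somatic markers lower (10) came to 3 with an equal sum and 6 with the 6 mock libraries alone. X-linked higher genes (12) came to 7 with a minimum of 5 FPKM. Leaving out 1 library gave 349 to 426 genes higher, 87 to 169 lower, 8 to 13 X-linked higher, 18 to 31 X-linked lower, 18 to 20 germline genes higher, 4 to 8 somatic markers lower and 277 to 316 again higher after UV.

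The strains share only the replicate numbers 2 and 4 and no source says that a number marks a shared batch, so the pairing is not part of the design. With the replicate block 329 genes were higher and 85 lower, 16 X-linked genes were lower and 4 somatic markers were lower.

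An alternative chosen after seeing the data left out both lin-52 mock libraries with the most ribosomal RNA, with the remaining library assumed to vary like the other groups. It gave 230 genes higher, 88 lower, 6 and 13 X-linked genes higher and lower, 15 germline genes higher, 3 somatic markers lower and 179 again higher after UV. Fragments per library are unknown, so no counting limit is given for low or absent genes.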
